A study of Mus musculus with 2 samples.

Results

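Early transposons (ETn) and the related MusD elements of the mouse were examined as 3 of the 952 repeat types counted in a chromatin immunoprecipitation sequencing (ChIP-seq) experiment. The members were the rows whose name begins with ETn, MMETn, RLTRETN or ERVB7, in any case. MMETn, RLTRETN and ERVB7 matched 1 row each, and ETn matched 0 rows. MMETn-int holds the internal sequence, and RLTRETN_Mm and ERVB7_1-LTR_MM hold long terminal repeats (LTRs). The names do not separate ETn from MusD copies, and none of the 3 rows carries the name MusD, so the family is described by these rows.

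The study compared 1 ChIP sample with 1 input sample of wild-type mouse embryonic stem (ES) cells of strain 129S1/SvImJ at a passage number below 20. The ChIP used an antibody to the phosphorylated serine 31 of histone H3.3 (H3.3S31ph), and the input received no antibody. By their titles both samples were of mitotic cells, and the read counts do not measure the share of cells in mitosis. The cultures spent 12 hours in 9 µM RO-3306 and were harvested 11 hours after its removal. RO-3306 blocks the kinase CDK1, which drives entry into mitosis. No unsynchronised cells, no other antibody and no other strain stood beside these samples in the tables. No gene was measured, so the cell type could not be checked against marker genes. The tables held 12235477 ChIP reads and 8856751 input reads over 2 sequencing lanes of the same libraries. With 1 sample a group no test between conditions was possible, and each interval below is a 95% interval of counting error that does not measure the spread between cultures.

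ETn elements are LTR retrotransposons of the ERVK class that remain able to insert at new sites in the mouse germ line. They carry no functional retroviral genes and rely on proteins supplied by coding relatives of the MusD type, which lack an envelope gene. An LTR carries the promoter and the polyadenylation signal, and a full element has an LTR at each end of its internal sequence, whereas recombination between the ends leaves a solitary LTR. In mouse ES cells such elements are held silent by TRIM28 (KAP1), the histone methyltransferase SETDB1 and H3K9 trimethylation, and the histone variant H3.3 has been reported at class I and class II endogenous retroviruses in these cells. Serine 31 is a residue of H3.3 that the canonical H3 histones lack, and its phosphorylation is a mark of mitosis. 

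The internal sequence and 1 of the 2 LTR rows took a larger share of the ChIP reads than of the input reads. The other LTR row, RLTRETN_Mm, did not on the main scale, but its direction depended on the scale between the libraries. The ratio used here divides a row's share of the ChIP reads in the tables by its share of the input reads there (table totals). A ratio of 1 is thus the input level among reads counted in repeat types, not among all sequenced reads. ERVB7_1-LTR_MM had the highest ratio, 1.45 (1.37 to 1.53), MMETn-int followed with 1.32 (1.30 to 1.34), and RLTRETN_Mm had 0.969 (0.941 to 0.997). Neighbours in this order differed by more than counting error. A row was counted as higher where its ratio reached the reciprocal of 0.8 and as lower where it was 0.8 or less. MMETn-int and ERVB7_1-LTR_MM were higher, against 4.12% of the 704 rows with at least 100 input reads, and 0 of the 3 members were lower, against 47.4% of those rows. By interval, the same 2 members lay above 1, against 7.81% of the rows, and 1 member lay below 1, against 79.5%.

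MMETn-int, the internal sequence, held most of the family's reads. In lane 1 it had 30548 ChIP reads against 16630 input reads, and in lane 2 it had 29514 against 16370. Its share was 0.373% of the input reads in the tables and 0.491% of the ChIP reads. At its input share it would have had 45589 ChIP reads over both lanes, and it had 60062, which is 14473 more. The lanes gave ratios of 1.32 (1.30 to 1.35) and 1.31 (1.29 to 1.34), so both lay above the input level with overlapping intervals. 

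RLTRETN_Mm, the row named for the ETn LTR, lay close to the input level. In lane 1 it had 5412 ChIP reads against 3993 input reads, and in lane 2 it had 5448 against 4121. Its share was 0.0916% of the input reads and 0.0888% of the ChIP reads. The ratios of 0.976 (0.937 to 1.02) in lane 1 and 0.962 (0.924 to 1.00) in lane 2 each had an interval that included 1, and only the summed lanes placed the interval below it. The direction depended on the scale between the libraries: the log2 ratio was -0.046 on table totals and -0.11 on totals without the 5 rows with most input reads, but 0.27 relative to the median repeat, 0.25 relative to old repeats, 0.16 without the 5 rows with most ChIP reads and 0.12 on the scale of the deposited log2 values.

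ERVB7_1-LTR_MM, the LTR row of a betaretrovirus-like group, was the least abundant of the 3 rows. In lane 1 it had 2114 ChIP reads against 1045 input reads, and in lane 2 it had 1993 against 1010. Its share was 0.0232% of the input reads and 0.0336% of the ChIP reads, and it had 1268 more ChIP reads over both lanes than its input share gives. The ratios were 1.46 (1.35 to 1.57) in lane 1 and 1.44 (1.33 to 1.55) in lane 2. Its intervals were wider than those of the other members, because it rested on 2055 input reads in all. Read counts of different rows are not per length of sequence, so they do not rank the rows by copy number.

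**Figure D1:**
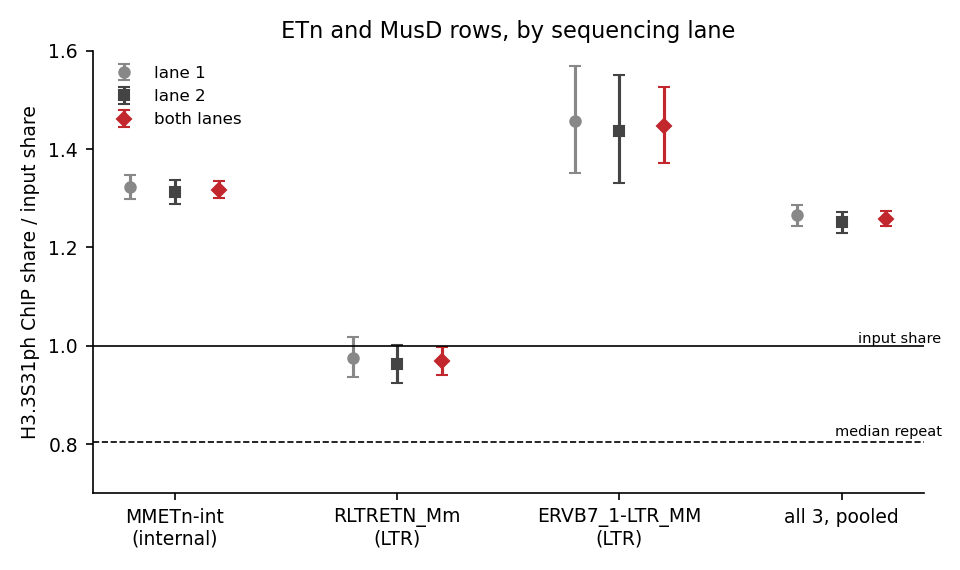
Ratio of the ChIP share to the input share (linear vertical axis, not starting at 0) for MMETn-int, RLTRETN_Mm, ERVB7_1-LTR_MM and the 3 rows pooled, in lane 1, lane 2 and both lanes, with 95% intervals of counting error. MMETn-int and ERVB7_1-LTR_MM lie above the input share (solid line) in both lanes, while RLTRETN_Mm lies between it and the median repeat (dashed line, 0.805).

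The median of all 704 rows had a ratio of 0.805. Relative to that median all 3 members lay higher. ERVB7_1-LTR_MM stood 1.80-fold (1.70 to 1.90) above it, MMETn-int 1.64-fold (1.62 to 1.66) and RLTRETN_Mm 1.20-fold (1.17 to 1.24). Relative to the median, 2 of the 3 members were higher by the same fold, against 11.1% of the 704 rows, and 0 were lower, against 2.41%. An interval above the median was found for 3 of the 3, against 27.3%, and one below it for 0 of the 3, against 19.2%.

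In the order of all 704 rows, ERVB7_1-LTR_MM was in position 17 from the top and MMETn-int in position 21. RLTRETN_Mm was in position 99. Among the 55 internal rows with at least 100 input reads, whose median ratio was 0.793, MMETn-int was the row in position 5. Among the 183 rows with LTR in their name that are not internal, whose median ratio was 0.821, ERVB7_1-LTR_MM was in position 9 and RLTRETN_Mm in position 49. The interval of MMETn-int overlapped that of 17 other rows, with 17 rows wholly above it and 669 wholly below it. ERVB7_1-LTR_MM overlapped 18 rows, with 9 above and 676 below, whereas RLTRETN_Mm overlapped 157 rows, with 55 above and 491 below.

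The rows next to each member in this order, taken from those with at least 1000 input reads, were chosen after their values were seen. MMETn-int lay between RLTR10-int, at 1.33 (1.31 to 1.35), and the low-complexity row GC_rich, at 1.31 (1.24 to 1.40), and its log2 ratio was separable from neither, with a difference of -0.015 (-0.046 to 0.017) from RLTR10-int and 0.0027 (-0.084 to 0.089) from GC_rich. ERVB7_1-LTR_MM lay between ZP3AR, a satellite, at 1.46 (1.41 to 1.52), and RLTR1 at 1.36 (1.27 to 1.45). RLTRETN_Mm lay between RLTR13D1 at 0.970 and LTRIS_Mm at 0.967.

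**Figure D2:**
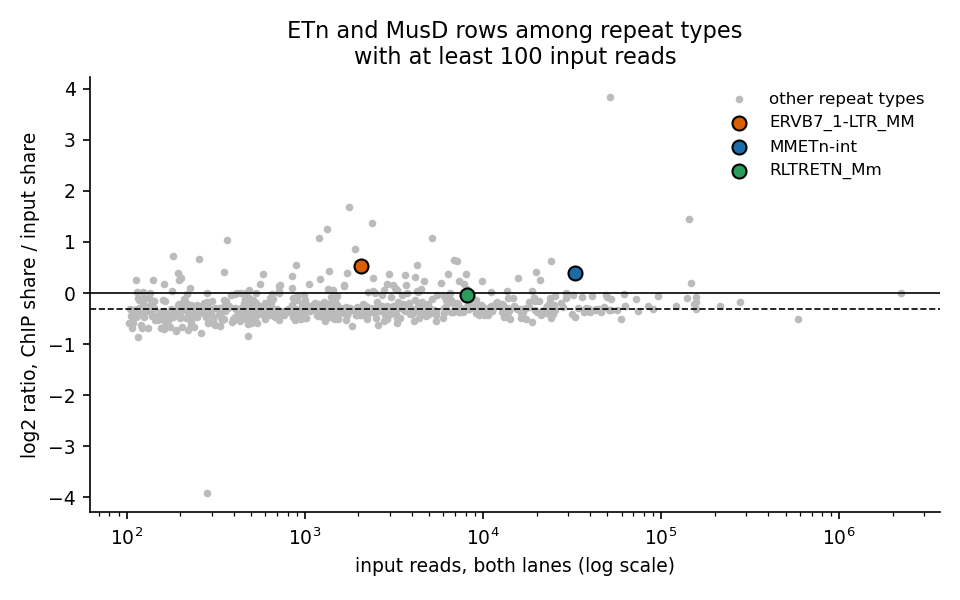
Log2 ratio of ChIP share to input share (vertical axis) against input reads of both lanes (log scale) for the 704 rows with at least 100 input reads, with the 3 members in colour. ERVB7_1-LTR_MM and MMETn-int lie above the input level (solid line) and RLTRETN_Mm near it, and all 3 lie above the median row (dashed line, log2 ratio -0.31).

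Internal and LTR sequence were then compared within the family. This difference does not depend on the scale between the libraries, because both rows are counted in the same 2 libraries. The single internal row exceeded the pooled LTR rows by 1.24-fold (1.20 to 1.27), a log2 difference of 0.31 (0.27 to 0.35), with 0.30 in lane 1 and 0.31 in lane 2. Pooled, the LTR rows had 14967 ChIP and 10169 input reads and a ratio of 1.07 (1.04 to 1.09). LTR rows made up 23.6% (23.2 to 24.0) of the family's input reads and 19.9% (19.7 to 20.2) of its ChIP reads.

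The pooled LTR value joined rows that differed from each other, and the direction of the internal to LTR difference depended on which LTR row was used. MMETn-int exceeded RLTRETN_Mm by 1.36-fold (1.32 to 1.40), but it stood below ERVB7_1-LTR_MM at 0.911-fold (0.862 to 0.962). In log2 terms the differences were 0.44 (0.40 to 0.49) and -0.13 (-0.21 to -0.056). In lane 1 and lane 2 they were 0.44 and 0.45 for RLTRETN_Mm, and -0.14 and -0.13 for ERVB7_1-LTR_MM. RLTRETN_Mm held 8114 of the 10169 LTR input reads. LTR rows count the ends of full elements and solitary LTRs together, which cannot be told apart here.

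The widest gap inside the family was the one between its LTR rows. ERVB7_1-LTR_MM exceeded RLTRETN_Mm by 1.49-fold (1.41 to 1.59), which is 0.58 (0.49 to 0.67) on the log2 scale, and by 0.58 in each lane. ERVB7_1-LTR_MM made up 4.76% (4.56 to 4.97) of the family's input reads and 5.47% (5.31 to 5.64) of its ChIP reads, while RLTRETN_Mm made up 18.8% (18.4 to 19.2) and 14.5% (14.2 to 14.7). The sources used here do not give how reads that match more than 1 row were assigned, and the part of this in the gap was not tested.

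To place this difference, the same values were computed for 3 further groups of retrovirus-like rows. In the intracisternal A particle group, with IAPEz-int and 5 rows of IAPLTR1 and IAPLTR2, internal sequence exceeded the LTR rows by a log2 difference of 0.24 (0.21 to 0.27). The pooled difference of the ETn and MusD rows was larger by 0.066 (0.015 to 0.12). In the group of RLTR10 and BGLII rows, with 1 internal and 11 LTR rows, it was 0.38 (0.35 to 0.41), and the value of the ETn and MusD rows minus this was -0.078 (-0.13 to -0.027). Against the 7 RLTR10 LTR rows alone, without BGLII, RLTR10-int had a difference of 0.20 (0.17 to 0.23), and the value of the ETn and MusD rows was then larger by 0.11 (0.055 to 0.16). In the group of other ERVB rows the 1 internal row was MMTV-int, while the 6 LTR rows all had ERVB names. The difference in this group therefore did not set an internal row against LTR rows of the same name. The LTR rows compared with MMETn-int and IAPEz-int did not carry those names either. In the group of other ERVB rows the difference was -0.0088 (-0.13 to 0.12), and the value of the ETn and MusD rows was larger by 0.32 (0.18 to 0.45). The place of the ETn and MusD rows in this order thus depended on which LTR rows were used. With the median of rows in place of pooled reads their difference was 0.15, against 0.37 for the intracisternal A particle group, 0.40 for RLTR10 with BGLII and 0.053 for the other ERVB rows. Without RLTRETN_Mm it was -0.13 (-0.21 to -0.056), below the pooled values of all 3 groups. This interval overlapped that of the other ERVB rows. The gap between the lowest and the highest LTR row, 1.49-fold in the ETn and MusD family, was 1.77-fold, 1.63-fold and 2.12-fold in these groups in the same order.

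The level of the ETn and MusD internal sequence lay between those of these groups. MMETn-int stood at 0.483-fold (0.476 to 0.490) of IAPEz-int, a log2 difference of -1.05, and at 0.990-fold (0.968 to 1.01) of RLTR10-int, an interval that included 1. Against MMTV-int it was 1.44-fold (1.33 to 1.57) higher. ERVB7_1-LTR_MM stood at 0.626-fold (0.591 to 0.662) of the pooled IAPLTR1 and IAPLTR2 rows, and was 1.42-fold (1.34 to 1.50) higher than the RLTR10 and BGLII LTR rows and 1.57-fold (1.48 to 1.67) higher than the other ERVB LTR rows. RLTRETN_Mm was at 0.419-fold (0.405 to 0.434), 0.950-fold (0.921 to 0.980) and 1.05-fold (1.01 to 1.10) of the same 3 pools.

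**Figure D3:**
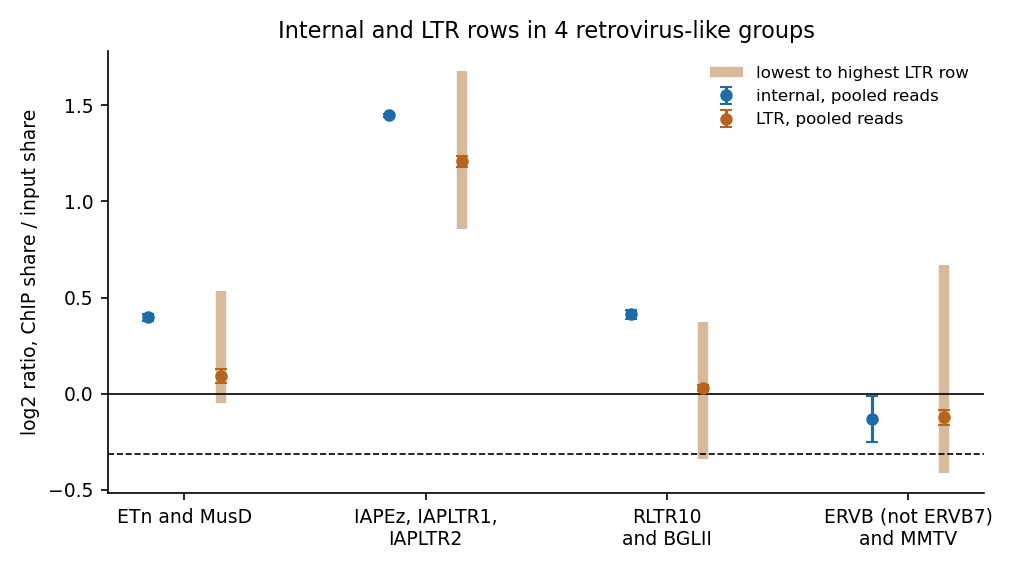
Log2 ratio of ChIP share to input share for the pooled internal and the pooled LTR rows of 4 groups, with 95% intervals of counting error. Broad bars span the lowest to the highest LTR row, and lines mark the input level (solid) and the median row (dashed). The ETn and MusD internal row, at 0.40, lies between RLTRETN_Mm and ERVB7_1-LTR_MM, the LTR rows grouped with it by name.

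A wider background came from row names that share a stem, with 1 row ending in -int and at least 1 LTR row. There were 35 such stems with at least 100 input reads in each row, and some of them share LTR rows. Related rows named otherwise were left out, such as MURVY-int with MURVY-LTR, RLTR4_MM-int with RLTR4_Mm, IAPEy-int with IAPEY_LTR, and ORR1D-int with ORR1D1 and ORR1D2. By point ratio the internal row was lower for MURVY, RLTR4 and IAPEy and higher for ORR1D. The MMETn name has no LTR row under its stem, so the family is not among them. Their median difference of internal minus LTR was -0.073 on the log2 scale, from -0.45 to 0.67. The interval lay above 0 for 6 stems, below 0 for 15, and included 0 for 14. The pooled difference of the ETn and MusD rows, 0.31, was exceeded by 3 of the 35 stems, and that of MMETn-int against RLTRETN_Mm, 0.44, by 1. These counts compare point values. The stem above 0.44, named after its value was seen, was MamGyp, at 0.67 (0.31 to 1.02). Its internal row had 112 input reads, and its interval included 0.44. Of the same stems, 10 lay lower than the difference of MMETn-int against ERVB7_1-LTR_MM.

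**Figure D4:**
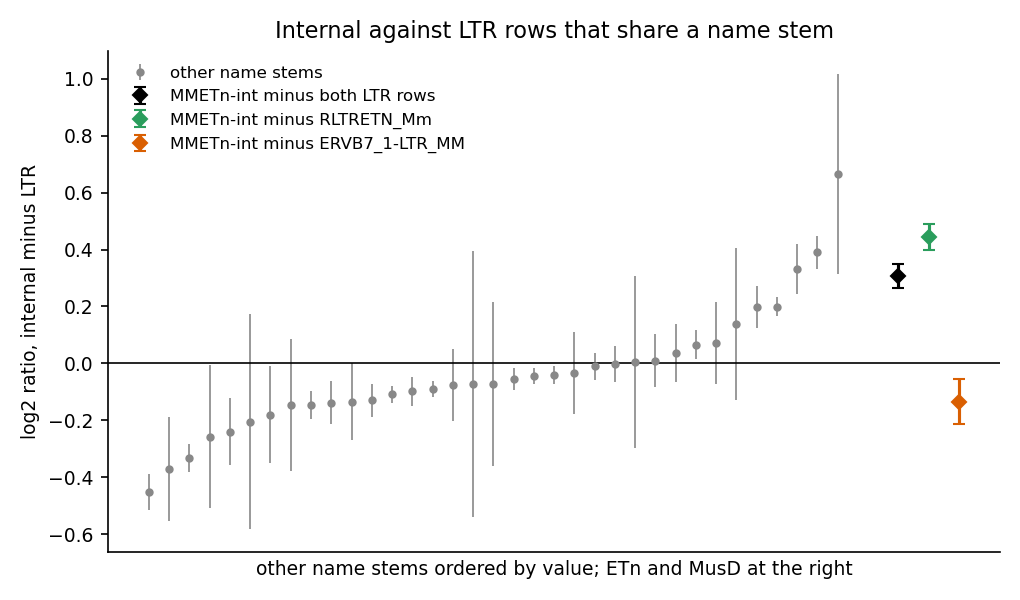
Log2 difference of internal minus LTR rows, with 95% intervals of counting error, for 35 name stems ordered by value (grey) and for MMETn-int against both LTR rows, RLTRETN_Mm and ERVB7_1-LTR_MM (coloured, right). The first 2 of these lie at 0.31 and 0.44 and the last at -0.13, against a median of -0.073 over the stems.

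The 3 rows together had 75029 ChIP and 43169 input reads and a pooled ratio of 1.26 (1.24 to 1.27). They took 0.487% of the input reads and 0.613% of the ChIP reads, which is 15392 ChIP reads beyond the input share, of which 14473 were from MMETn-int. Without MMETn-int the pooled ratio is that of the LTR rows, 1.07. As a log2 ratio the pool had 0.34 (0.32 to 0.36) in lane 1 and 0.32 (0.30 to 0.35) in lane 2, a difference of 0.016 (-0.018 to 0.050). For each member the lane difference had an interval that included 0, with 0.011 for MMETn-int, 0.020 for RLTRETN_Mm and 0.020 for ERVB7_1-LTR_MM.

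The authors' deposited table gives a log2 ratio with bounds, whose confidence level the labels and headers do not state, for each lane, on a scale that sets every value higher by about 0.17 than table totals do. In the authors' deposited table MMETn-int had 0.57 (0.55 to 0.60) in lane 1 and 0.56 (0.54 to 0.58) in lane 2. ERVB7_1-LTR_MM had 0.71 (0.62 to 0.80) and 0.69 (0.60 to 0.78) in the authors' deposited table. For RLTRETN_Mm the authors' deposited table lists 0.13 (0.084 to 0.18) and 0.11 (0.064 to 0.16), so this row stands above 0 in both lanes there, whereas it stood at -0.046 on table totals. The order of the 3 rows was the same on both scales, since a scale adds 1 constant to every row of a lane.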

How the data were processed

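The members, comparison groups and alternatives were chosen with earlier results of these data known. Per the labels' protocols, chromatin of cells fixed with 0.4% formaldehyde for 10 min was sheared to about 300 bp and precipitated with 10 µg of antibody, and libraries from 20 ng of DNA with 10 amplification cycles were sequenced as single 50 bp reads. Bowtie 1.0.0 and the build mm9 are named in the submitters' processing notes. The step by which the authors assigned reads to repeat types is not stated in the sources used here. Per the file headers, the authors deposited raw counts of reads for each repeat type, and a log2 ratio of ChIP over input with its bounds. Tested on the values, this log2 ratio equals that of the counts with 0.5 added, minus 1 constant per lane (0.31 and 0.29), to within 0.00053.

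Counts of the 2 lanes were summed in Python 3.11.15 (pandas 2.3.3, scipy 1.17.1). Lanes are runs of 1 library and were not treated as replicates. No file gives library totals, so shares were taken over the table totals. These were 6204712 ChIP and 4467116 input reads in lane 1, and 6030765 and 4389635 in lane 2. Ratios carry exact conditional (Clopper-Pearson) intervals, and differences between rows log-normal intervals from the 4 counts. Intervals cover counting error only and treat reads as independent. Reads carry no molecular identifiers, so copies made by amplification could not be told apart and could make the intervals too narrow. Both kinds of interval were checked on simulated independent counts, the model they assume. That check does not reach such copies or the spread between cultures. Internal rows are those ending in int or _I. All members were described, and rows were counted as past a fold of 0.8 or its reciprocal, or with an interval beside 1, with at least 100 input reads. Alternatives were single lanes, 5 other scales (old repeats are rows named MIR, L2, Tigger, URR1, MER5 and Charlie), 0.5 added reads, read minimums and left-out rows. Rows carry no coordinates, so no sequence is shown.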

Additional observations from a re-analysis of the deposited data

How the results depend on the processing

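The scale between the libraries moved every ratio, while the difference between internal and LTR rows does not contain it. The pooled log2 ratio of all members, 0.33 on table totals, was 0.64 relative to the median repeat, 0.63 relative to old repeats, 0.50 on the deposited scale, 0.26 without the 5 rows with most input reads and 0.53 without the 5 rows with most ChIP reads, the last chosen after seeing the data. In the same order, the internal row, 0.40 on table totals, was 0.71, 0.70, 0.57, 0.33 and 0.60, and the pooled LTR rows, 0.091 on table totals, were 0.40, 0.39, 0.26, 0.022 and 0.29. The ratio of RLTRETN_Mm reversed, from -0.046 to 0.27, 0.25, 0.12 and 0.16 on the first 3 and the last of these scales, and was -0.11 on the fourth. Without MMETn-int the pooled log2 ratio was 0.091.

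The internal minus LTR log2 difference, 0.31, was 0.15 with the median of rows in place of pooled reads, 0.44 without ERVB7_1-LTR_MM and -0.13 without RLTRETN_Mm, which turned its direction; the cause was not tested beyond the values of the rows themselves. In the comparison groups, in alternatives chosen after seeing the data, the median of rows moved this difference from 0.24 to 0.37 for the IAP rows, and leaving out BGLII moved it from 0.38 to 0.20 for the RLTR10 rows. Leaving out the internal row with most reads gave no value, because there is 1 internal row. Single lanes and 0.5 added reads left each value they were run on inside its counting interval. In each lane, under each read minimum and on each scale, 2 of 3 members passed the fold for higher rows. On totals without the 5 rows with most input reads, MMETn-int passed narrowly, at a log2 ratio of 0.33, by less than its counting error. No paired analysis was possible because each group has 1 sample. Depth limits ERVB7_1-LTR_MM most, with 2055 input reads.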
